A study of Mus musculus with 6 samples.

Results

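The genes described here are those of the CDK inhibitors and the D-type cyclins of the mouse, measured in intestinal organoids after treatment with retinoic acid. All 10 were found by symbol among the 21534 rows of the deposited count table: the inhibitor genes Cdkn1a, Cdkn1b, Cdkn1c, Cdkn2a, Cdkn2b, Cdkn2c and Cdkn2d, and the cyclin genes Ccnd1, Ccnd2 and Ccnd3. Each had 1 row, and each passed the filter on low counts. Closed cultures of ileal epithelium, called organoids, came from C57Bl/6 mice of wild-type genotype and were grown in medium with 10 µM CHIR99021 for 96 hours. CHIR99021 inhibits the kinase GSK3, so that Wnt signalling is switched on and stem cells become more frequent, and every library carries this exposure. The treated group then received 10 µM all-trans retinoic acid, a vitamin A derivative that activates nuclear receptors, for 24 hours (3 libraries). Its control received the vehicle, DMSO, for the same time (3 libraries). The labels do not say whether the libraries of a group were grown separately or came from different mice. The spread behind every p-value is therefore that of these libraries alone and may be technical.

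The step from the G1 phase of the cell cycle into DNA synthesis is driven by cyclin-dependent kinases. D-type cyclins bind and activate CDK4 and CDK6, which phosphorylate the retinoblastoma protein and thereby release E2F transcription factors. Inhibitors of the INK4 family (Cdkn2a to Cdkn2d) block CDK4 and CDK6, whereas those of the CIP/KIP family (Cdkn1a to Cdkn1c) bind cyclin-CDK complexes more widely. In the intestinal crypt, Ccnd1 and Ccnd2 are known as genes whose expression depends on Wnt signalling, and CIP/KIP inhibitors are known to accompany the exit of cells from the cycle.

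Total counts per library were between 15080190 and 21833846 with retinoic acid and between 14919144 and 16927696 with vehicle. Cyp26b1, a retinoic acid-degrading enzyme and a known target of retinoic acid receptors, had 723 to 1052 CPM in the retinoic acid libraries and 0.405 to 1.36 CPM in the vehicle libraries, so every library was on the side its label gives. Levels are given as CPM, counts scaled to a common library size after TMM adjustment. Epithelial markers summed to between 10860 and 11790 CPM with retinoic acid and between 10950 and 11660 CPM with vehicle. Markers of other tissues were low: their sums were 23.3 to 26.2 CPM with retinoic acid and 21.9 to 25.4 CPM with vehicle for 6 leukocyte genes, and at most 6.78 CPM in any library for fibroblasts, endothelium, smooth muscle, or nerve and glia. Of these 25 genes 8 passed the filter on low counts. Csf1r, a macrophage receptor gene, made up most of the leukocyte sum (20.8 CPM with retinoic acid and 21.1 CPM with vehicle), while Ptprc, expressed by all leukocytes, averaged 0 and 0.0395 CPM. The labels call the cells intestinal stem cells, yet the Paneth cell gene Lyz1 averaged 3382 CPM with retinoic acid and 3789 CPM with vehicle, against 81.7 and 127 CPM for the stem cell gene Lgr5, so markers of differentiated cells were present as well. Library 3 of each group stood apart: the chi-square statistic per row was 9.93 and 10.5 between retinoic acid library 3 and its 2 fellows, which differed from each other by 3.96. It was 6.14 and 7.02 between vehicle library 3 and its fellows, against 4.63 between those.

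Retinoic acid moved the inhibitor genes in both directions and left the D-type cyclin genes without a detected change. Cdkn2b, Cdkn2a and Cdkn1a rose, Cdkn1c and Cdkn2d fell, and Cdkn1b, Cdkn2c and the 3 cyclin genes were not called. A gene is called here when its Benjamini-Hochberg adjusted p over all 13700 tested rows lies under 0.05 in edgeR's quasi-likelihood test. Of all tested rows 9.46% were called, 5.37% higher and 4.09% lower with retinoic acid, against 5 of these 10 genes, 3 higher and 2 lower. The libraries of the groups did not overlap for the same 5 genes, where 25.5% of all tested rows had no overlap (12.9% above and 12.6% below vehicle). The median log2 fold change was 0.01 for the 10 genes and -0.01 for all tested rows. In bulk RNA, a change in the share of a cell type and a change of the RNA per cell cannot be told apart, and stem cell markers moved with the treatment: 4 of 6 fell, and their sum was 506 to 526 CPM with retinoic acid and 701 to 770 CPM with vehicle. Markers of other epithelial cell types had calls too. Among 7 enterocyte markers 2 rose and 1 fell, and among 4 Paneth cell markers 1 rose and 1 fell. Of 4 goblet cell markers 1 rose, of 4 enteroendocrine markers 1 fell, and of 4 tuft cell markers none was called. The part of these marker changes in the changes below was not tested.

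**Figure D1:**
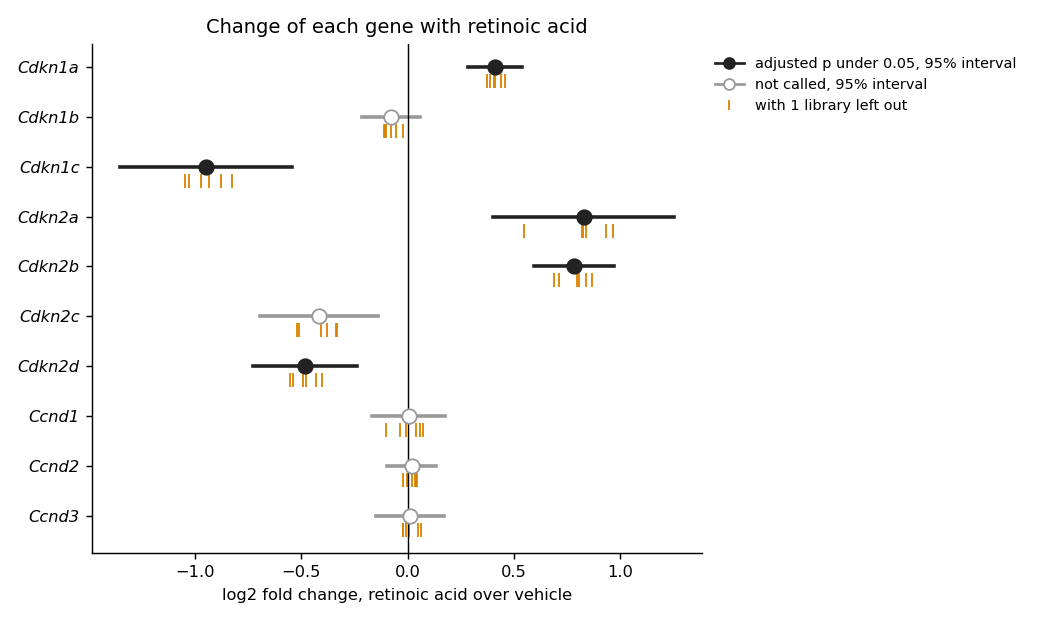
Log2 fold change of each gene (horizontal axis, retinoic acid over vehicle) with its 95% interval, filled where the adjusted p was under 0.05; the short orange marks below each gene are the estimates with 1 of the 6 libraries left out. Cdkn2a and Cdkn2b lie right of 0, Cdkn1a lies right of 0 with a shorter bar, Cdkn1c and Cdkn2d lie left of 0, and the 3 D-type cyclin genes sit on 0.

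Cdkn2b encodes p15, an INK4 inhibitor known as a target of TGF-beta signalling, and had the smallest p of the 10 genes (ENSMUSG00000073802, mm10 chromosome 4, 89306289 to 89311032, minus strand). It stood at 281, 250 and 322 CPM in retinoic acid libraries 1, 2 and 3, against 149, 176 and 170 CPM in vehicle libraries 1, 2 and 3. Every retinoic acid library lay above every vehicle library, with library 3 the highest of the treated group. The group means were 284 ± 36.1 CPM with retinoic acid and 165 ± 14.7 CPM with vehicle (SD, n = 3 each), a 1.72-fold difference. This is a log2 fold change of 0.78 with a standard error (SE) of 0.09 and an adjusted p of 4.84e-05 in edgeR. It stayed called whichever library was left out, with log2 fold changes between 0.69 and 0.87. Of all tested rows, 3.53% had a larger absolute log2 fold change.

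Cdkn2a is the neighbour of Cdkn2b on the same strand, with 11.6 kb between them (ENSMUSG00000044303, mm10 chromosome 4, 89274473 to 89294653). The gene has separate start sites for an INK4 inhibitor, p16, and for the p19Arf protein, which acts through p53, and the count per gene does not separate these transcripts. It was read far less often than Cdkn2b, with 266, 108 and 159 counts in retinoic acid libraries 1, 2 and 3 and 91, 90 and 79 counts in vehicle libraries 1, 2 and 3. As CPM these were 12.5, 7.32 and 8.03 with retinoic acid and 5.26, 5.33 and 5.20 with vehicle. Retinoic acid library 1 stood well above the other treated libraries, and all 3 lay above vehicle, whose libraries agreed closely. Means were 9.27 ± 2.79 CPM with retinoic acid and 5.26 ± 0.0656 CPM with vehicle (SD, n = 3 each), a 1.78-fold difference (log2 fold change 0.83, SE 0.20, adjusted p = 0.0159 in edgeR). The call rested on single libraries: the adjusted p was 0.118, with a log2 fold change of 0.55, when retinoic acid library 1 was left out, and it was 0.0639 or 0.0608 when vehicle library 1 or 2 was.

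The tested genes on either side of this pair were not called. Mtap, a methylthioadenosine phosphorylase gene 93.4 kb below Cdkn2a, averaged 94.7 CPM with retinoic acid and 85.6 CPM with vehicle (log2 fold change 0.15, adjusted p = 0.216 in edgeR). Elavl2, an RNA-binding protein gene far above Cdkn2b, averaged 1.83 and 2.38 CPM (log2 fold change -0.36, adjusted p = 0.519 in edgeR).

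**Figure D2:**
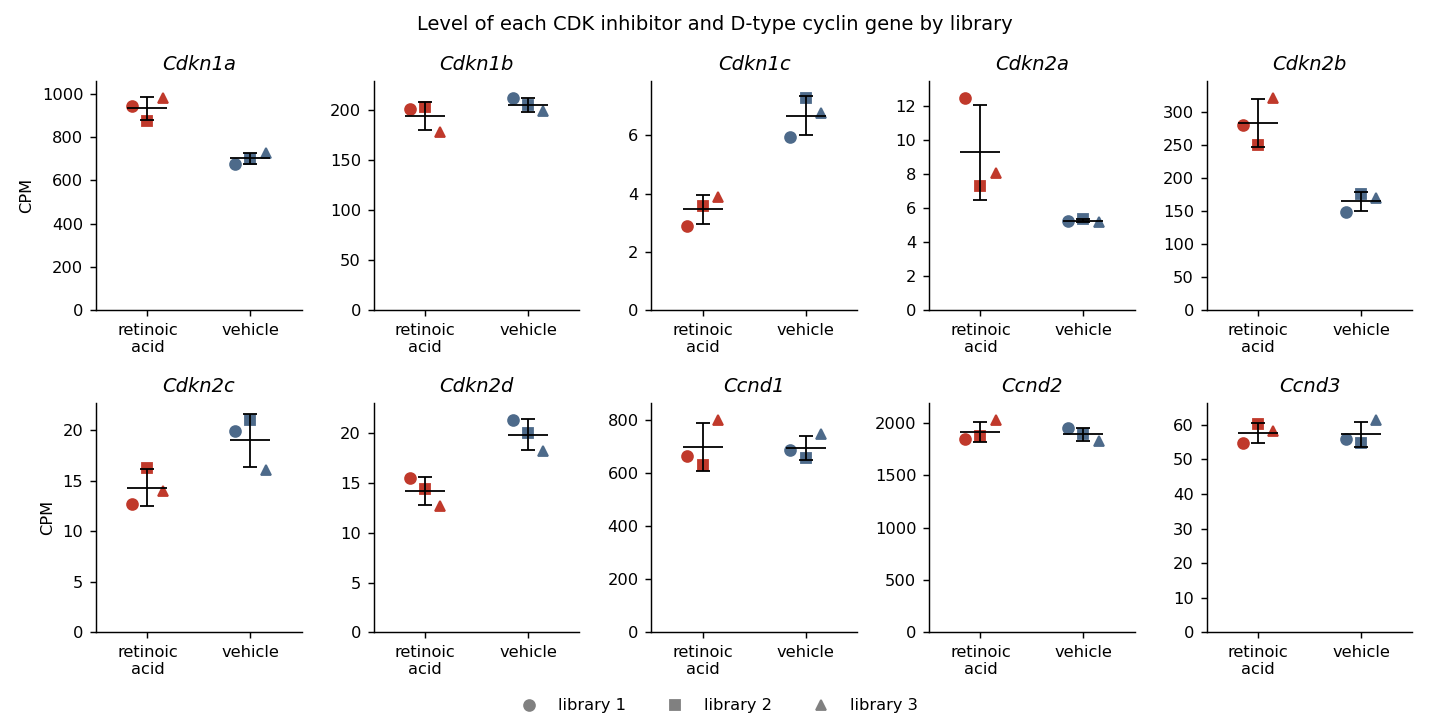
CPM of each gene (vertical axes, from 0) in the retinoic acid libraries (red, left) and the vehicle libraries (blue, right); the symbols mark library 1, 2 and 3, and the bars give the mean and SD of 3 libraries. The groups separate for Cdkn1a, Cdkn1c, Cdkn2a, Cdkn2b and Cdkn2d, and retinoic acid library 1 stands apart for Cdkn2a at 12.5 CPM.

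The promoters of the 3 genes that rose are shown, and they were picked after their values were seen. Whether retinoic acid receptors act on these genes was not tested. RefSeq's table for GRCm38.p6, the build called mm10 in the labels, held 7 of the 10 genes with 11 start sites, and the 250 bases before each start were searched on both strands. Capitals mark matches to AGGTCA and GGTTCA, half-sites of nuclear receptors that include the retinoic acid receptors (GGTTCA reads TGAACC on the other strand), and to the GC box GGGCGG. The TATA box TATAAA was searched too. No searched motif overlapped another match in these windows.
Cdkn2b, chr4:89311033-89311282, minus strand: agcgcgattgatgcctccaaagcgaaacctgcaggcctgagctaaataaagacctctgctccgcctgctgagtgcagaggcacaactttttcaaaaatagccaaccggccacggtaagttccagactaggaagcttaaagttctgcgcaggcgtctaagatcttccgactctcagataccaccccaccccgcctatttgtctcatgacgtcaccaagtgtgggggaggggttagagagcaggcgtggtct
Cdkn2a distal start (p19Arf), chr4:89294620-89294869, minus strand: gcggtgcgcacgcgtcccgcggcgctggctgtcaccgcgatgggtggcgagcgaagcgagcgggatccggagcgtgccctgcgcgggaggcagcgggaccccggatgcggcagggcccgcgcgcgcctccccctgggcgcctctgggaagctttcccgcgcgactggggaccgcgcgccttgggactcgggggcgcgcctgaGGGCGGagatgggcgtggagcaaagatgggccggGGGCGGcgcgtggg
Cdkn2a proximal start (p16), chr4:89282193-89282442, minus strand: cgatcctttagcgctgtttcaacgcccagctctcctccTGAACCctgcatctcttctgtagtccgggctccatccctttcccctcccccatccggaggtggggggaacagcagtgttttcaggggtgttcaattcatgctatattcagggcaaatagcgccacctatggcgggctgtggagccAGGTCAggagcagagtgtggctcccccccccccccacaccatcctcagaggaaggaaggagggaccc
Cdkn1a upstream start, chr17:29090729-29090978, plus strand: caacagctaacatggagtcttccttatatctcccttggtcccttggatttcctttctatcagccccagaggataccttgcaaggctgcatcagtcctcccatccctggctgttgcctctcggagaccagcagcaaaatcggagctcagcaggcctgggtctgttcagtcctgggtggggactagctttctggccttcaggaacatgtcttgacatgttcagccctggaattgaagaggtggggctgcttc
Cdkn1a downstream start, chr17:29093519-29093768, plus strand: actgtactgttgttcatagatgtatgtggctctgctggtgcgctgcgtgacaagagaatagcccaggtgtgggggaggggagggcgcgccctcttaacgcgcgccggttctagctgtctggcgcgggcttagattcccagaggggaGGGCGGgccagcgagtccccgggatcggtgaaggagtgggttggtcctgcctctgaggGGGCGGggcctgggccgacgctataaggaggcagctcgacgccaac
The proximal Cdkn2a start held AGGTCA and TGAACC, the distal one held 2 GC boxes, and so did the downstream start of Cdkn1a. No match to these letters was found in the windows of Cdkn2b and the upstream start of Cdkn1a. Of 32851 RefSeq promoter windows of the same length, 14% held AGGTCA, 8.85% GGTTCA, 32.7% GGGCGG and 12.4% TATAAA. Among the 11 start sites of the 7 genes with an entry, 3 held AGGTCA, 2 GGTTCA, 7 GGGCGG and 0 TATAAA. Cdkn1c, Ccnd1 and Ccnd2 had no entry and were not searched. The other starts with AGGTCA belonged to Cdkn2c and Ccnd3, which were not called, and that Ccnd3 start held GGTTCA too. A match is a string of letters and does not show that a factor binds there.

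The remaining INK4 genes had lower levels with retinoic acid. Cdkn2d, which encodes the INK4 inhibitor p19 and is distinct from p19Arf, fell (ENSMUSG00000096472, mm10 chromosome 9, 21288463 to 21291209). It stood at 15.5, 14.4 and 12.7 CPM in retinoic acid libraries 1, 2 and 3 and at 21.3, 20.0 and 18.2 CPM in vehicle libraries 1, 2 and 3, so that all treated libraries lay below all vehicle libraries. The log2 fold change was -0.48 (SE 0.11, adjusted p = 0.015 in edgeR), a ratio of 0.715. It lost its call without vehicle library 1 (adjusted p = 0.0756) or vehicle library 2 (adjusted p = 0.058). Cdkn2c, the p18 gene (ENSMUSG00000028551, mm10 chromosome 4, 109660876 to 109667189), had 12.7, 16.3 and 14.0 CPM with retinoic acid and 20.0, 21.0 and 16.1 CPM with vehicle. Vehicle library 3 overlapped the treated libraries. Its log2 fold change of -0.42 (SE 0.13, 95% interval -0.70 to -0.14) was not called (adjusted p = 0.0619 in edgeR), but it passed when retinoic acid library 2 (0.0459), vehicle library 3 (0.0215) or library 3 of both groups (0.0148) was left out.

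Cdkn1a encodes p21, the CIP/KIP inhibitor known as a target of p53, and had the highest level of the 10 genes per length of the longest coding transcript (ENSMUSG00000023067, mm10 chromosome 17, 29090979 to 29100722, plus strand). It was measured at 942, 872 and 980 CPM in retinoic acid libraries 1, 2 and 3 and at 677, 698 and 727 CPM in vehicle libraries 1, 2 and 3. The groups were well apart, and the treated mean of 931 ± 54.6 CPM lay 1.33-fold above the vehicle mean of 701 ± 25.4 CPM (SD, n = 3 each). The log2 fold change was 0.41 (SE 0.06, adjusted p = 0.00042 in edgeR) and ranged from 0.37 to 0.46 with 1 library left out, always called. Of all tested rows, 13.2% had a larger absolute change.

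Cdkn1c, the p57 gene, moved the other way and had the largest absolute log2 fold change of the 10 genes (ENSMUSG00000037664, mm10 chromosome 7, 143458350 to 143461050, minus strand). Only the maternal copy of this imprinted gene is normally active in mice. It was rare, with 62, 53 and 77 counts in retinoic acid libraries 1, 2 and 3 and 103, 123 and 103 counts in vehicle libraries 1, 2 and 3. These were 2.91, 3.59 and 3.89 CPM with retinoic acid and 5.95, 7.28 and 6.78 CPM with vehicle, with no overlap. Means were 3.46 ± 0.505 CPM with retinoic acid and 6.67 ± 0.672 CPM with vehicle (SD, n = 3 each). The log2 fold change of -0.95 (SE 0.19, adjusted p = 0.00514 in edgeR) is a ratio of 0.518, and no single library carried the call (highest adjusted p of 0.034 with 1 left out). Fibroblast markers, given because they moved the same way, summed to 3.09 to 3.74 CPM with retinoic acid and 5.20 to 5.32 CPM with vehicle. Pdgfrb, the only 1 of the 7 to be tested, was not called and made up most of the sum (2.75 and 4.11 CPM), and the collagen genes Col1a2 and Col3a1 averaged at most 0.0678 CPM in either group. Their part in the fall of Cdkn1c was not tested. The neighbours of Cdkn1c in the same imprinted region were not called: Phlda2 had a log2 fold change of 0.20 (adjusted p = 0.403 in edgeR), Slc22a18 of -0.01 (0.972) and Kcnq1 of -0.19 (0.067).

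Cdkn1b encodes p27, the CIP/KIP inhibitor that holds cells in quiescence (ENSMUSG00000003031, mm10 chromosome 6, 134920401 to 134925513). Its levels were 201, 203 and 178 CPM in retinoic acid libraries 1, 2 and 3 and 212, 205 and 199 CPM in vehicle libraries 1, 2 and 3. The groups overlapped, and the log2 fold change of -0.08 (95% interval -0.22 to 0.06) was not called (adjusted p = 0.542 in edgeR). The upper bound of this interval lies below the log2 fold change of 0.41 of Cdkn1a.

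None of the D-type cyclin genes was called, and their intervals were narrow. Ccnd2, which encodes cyclin D2 (ENSMUSG00000000184, mm10 chromosome 6, 127125779 to 127151048), had 1852, 1873 and 2029 CPM with retinoic acid and 1954, 1895 and 1832 CPM with vehicle. The groups overlapped, and its log2 fold change of 0.02 had a 95% interval of -0.10 to 0.13 (adjusted p = 0.894 in edgeR). Ccnd3, the cyclin D3 gene (ENSMUSG00000034165, mm10 chromosome 17, 47505051 to 47599683), had 54.6, 60.3 and 58.1 CPM with retinoic acid and 55.8, 54.6 and 61.3 CPM with vehicle. It had a log2 fold change of 0.01 (95% interval -0.15 to 0.17, adjusted p = 0.961 in edgeR).

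Ccnd1, which encodes cyclin D1 (ENSMUSG00000070348, mm10 chromosome 7, 144929931 to 144939869), had 663, 629 and 799 CPM in retinoic acid libraries 1, 2 and 3 and 685, 655 and 745 CPM in vehicle libraries 1, 2 and 3. Library 3 was the highest in both groups. The log2 fold change was 0.00 (0.0046 before rounding), with a 95% interval of -0.17 to 0.18 (adjusted p = 0.984 in edgeR). Without library 3 of both groups it was -0.05 (adjusted p = 0.661). Ccnd1 shares 1100 exon bases with Oraov1 on the opposite strand, and whether counting used strand is not given in the sources used here. Oraov1 had 178, 167 and 202 CPM with retinoic acid and 185, 177 and 201 CPM with vehicle, again highest in library 3 of both groups. Ccnd3 shares 361 exon bases with Bysl on the opposite strand, which was not called (adjusted p = 0.808 in edgeR). Opposite-strand transcripts also share 273 exon bases with Cdkn1a, 625 with Cdkn1c, and 372 and 368 with Ccnd2, and their part in the counts was not tested.

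To compare levels between genes, CPM were divided by the length of the longest coding transcript in GENCODE M21, between 895 bases for Cdkn2a and 6330 bases for Ccnd2. With retinoic acid the order was Cdkn1a (448 CPM per kb), Ccnd2 (303), Cdkn2b (204), Ccnd1 (186), Cdkn1b (42.6), Ccnd3 (27.3), Cdkn2a (10.4), Cdkn2d (9.99), Cdkn2c (5.80) and Cdkn1c (1.82). With vehicle it was Cdkn1a (337 CPM per kb), Ccnd2 (299), Ccnd1 (186), Cdkn2b (119), Cdkn1b (45.0), Ccnd3 (27.1), Cdkn2d (13.9), Cdkn2c (7.70), Cdkn2a (5.88) and Cdkn1c (3.51). In vehicle every pair of neighbours in that order was separated in all libraries. With retinoic acid the libraries of Cdkn2b and Ccnd1 overlapped, as did those of Cdkn2a and Cdkn2d, and the other neighbours were separated. The order depends on the length used: with all exon bases of a gene, Ccnd2 came just above Cdkn1a in vehicle (201 against 197 CPM per kb, with overlapping libraries), and Ccnd3 fell to 6.52 CPM per kb.

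Summed per length, the 7 inhibitor genes came to 731, 670 and 767 CPM per kb in retinoic acid libraries 1, 2 and 3 and to 511, 540 and 544 CPM per kb in vehicle libraries 1, 2 and 3. The 3 D-type cyclin genes summed to 496, 493 and 562 CPM per kb with retinoic acid and to 518, 500 and 518 CPM per kb with vehicle. The ratio of the inhibitor sum to the cyclin sum was 1.40 ± 0.0635 with retinoic acid and 1.04 ± 0.0482 with vehicle (SD, n = 3 each). It is a description of genes chosen with their changes known and has no test. Cdkn1a and Cdkn2b made up most of the inhibitor sum: Cdkn1a held 62.0% ± 0.579 with retinoic acid and 63.4% ± 1.06 with vehicle, and Cdkn2b held 28.2% ± 1.75 and 22.3% ± 1.31 (SD, n = 3). Among the D-type cyclin genes the shares stayed close: Ccnd2 held 58.7% ± 1.51 with retinoic acid and 58.4% ± 2.18 with vehicle, Ccnd1 36.0% ± 1.94 and 36.3% ± 1.91, and Ccnd3 5.30% ± 0.456 and 5.29% ± 0.277 (SD, n = 3). These sums, ratios and shares depend on the length used, which the SDs do not cover. With all exon bases, Cdkn1a averaged 262 CPM per kb with retinoic acid and 197 with vehicle. Cdkn2b stayed at 204 and 119, and Ccnd3 had 6.57 and 6.52.

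**Figure D3:**
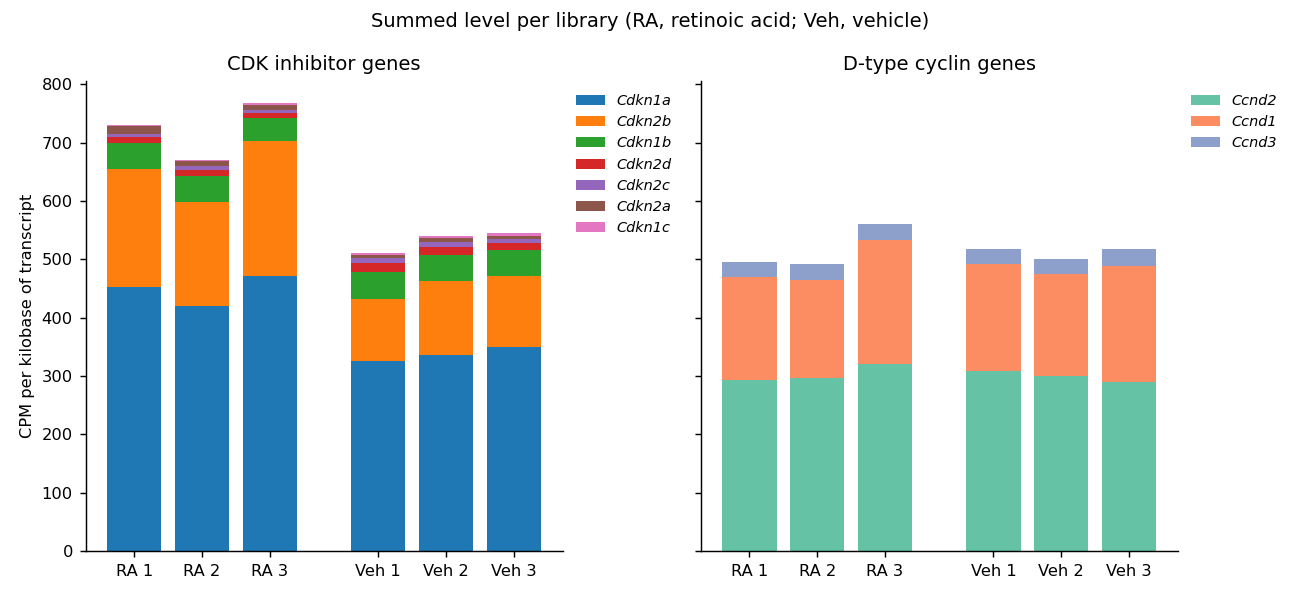
Summed CPM per kilobase of the longest coding transcript (vertical axis) in each retinoic acid library (RA) and vehicle library (Veh), stacked by gene, for the 7 CDK inhibitor genes (left) and the 3 D-type cyclin genes (right). The inhibitor bars reach 670 to 767 with retinoic acid and 511 to 544 with vehicle, mostly Cdkn1a and Cdkn2b, while the cyclin bars overlap.

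The kinases that D-type cyclins activate had values slightly below those of vehicle and were not called. Cdk4 averaged 192 CPM with retinoic acid and 214 CPM with vehicle (log2 fold change -0.16, adjusted p = 0.124 in edgeR), and Cdk6 averaged 75.6 and 89.4 CPM (-0.24, adjusted p = 0.0712). These kinases were picked with their values in view, and Cdk6 was called without retinoic acid library 2 (0.0464), without vehicle library 2 (0.048) or with no filter on low counts (0.0329). With the replicate number added to the fit, both were called (adjusted p = 0.0273 for Cdk4 and 0.0248 for Cdk6 in edgeR). Among 17 other cyclins, CDKs and their direct regulators 5 fell and 1 rose, against 4.09% lower and 5.37% higher of all tested rows. The median log2 fold change of the 17 was -0.24. The E-type cyclin genes, whose products activate CDK2 after the D-type step, had the largest called changes. Ccne2 averaged 4.65 ± 0.515 CPM with retinoic acid and 9.45 ± 1.02 CPM with vehicle (SD, n = 3; log2 fold change -1.02, SE 0.16, adjusted p = 0.00109 in edgeR). Ccne1 averaged 5.18 ± 0.657 and 9.60 ± 0.132 CPM (-0.89, SE 0.15, adjusted p = 0.00192). Ccna2, the cyclin of S phase and G2, fell by 0.47 on the log2 scale (adjusted p = 0.00436). Cdk2 (-0.33) and Cdk1 (-0.45) completed the 5 and were named after their values were seen. The member that rose was Cdc25a, a phosphatase that activates CDK2, at 101 CPM with retinoic acid and 79.6 CPM with vehicle (1.27-fold, adjusted p = 0.00456). Without retinoic acid library 1, vehicle library 1 or vehicle library 3, 3 members were lower instead of 5. Cdk2 lost its call without retinoic acid library 1 (adjusted p = 0.165) or 2 (0.0818) or vehicle library 1 (0.17) or 3 (0.0674), and Cdk1 without every library in turn (up to 0.203) other than retinoic acid library 2.

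Downstream of these kinases, 5 of 15 genes of the retinoblastoma and E2F families fell and none rose (median log2 fold change -0.21). Of all tested rows, 4.09% were lower and 5.37% higher. The 5 genes that fell included E2f8 (-0.62) and E2f7 (-0.59), which repress E2F targets, and the activator E2f1 (-0.42). The others were the E2f1 partner Tfdp2 (-0.34) and Mybl2 (-0.69), a regulator of later cell cycle genes. E2f7 was named after its value was seen. The number was 2 without retinoic acid library 1 or vehicle library 1. E2f1 lost its call without retinoic acid library 1 (adjusted p = 0.107) or vehicle library 1 (0.063) or 3 (0.0508), Tfdp2 without retinoic acid library 1 (0.0539) or vehicle library 1 (0.0541), and E2f7 without the same libraries (0.0931 and 0.072). Rb1, the retinoblastoma gene, averaged 63.1 CPM with retinoic acid and 59.1 CPM with vehicle and was not called (adjusted p = 0.697 in edgeR).

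Genes that the E2F factors switch on for DNA synthesis fell in 14 of 22 cases, with none higher and a median log2 fold change of -0.51. Of all tested rows, 4.09% were lower and 5.37% higher. Mcm6, Mcm5 and Mcm2, subunits of the replication helicase, had log2 fold changes of -0.70, -0.61 and -0.53, and Uhrf1, which maintains DNA methylation at replication, had -0.65 (adjusted p between 3.18e-05 and 0.00058 in edgeR). Pcna, the sliding clamp gene, was not called at 64.3 CPM with retinoic acid and 65.6 CPM with vehicle. Of 17 mitotic genes 11 fell and none rose (median -0.47), against the same shares of all tested rows. Without retinoic acid library 1 or vehicle library 1, 7 fell. Mki67, Aurkb, Foxm1 and Plk1 had log2 fold changes of -0.65, -0.50, -0.50 and -0.42. Genes given as not called in this and the next accounts were picked from the lists after their values were seen.

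**Figure D4:**
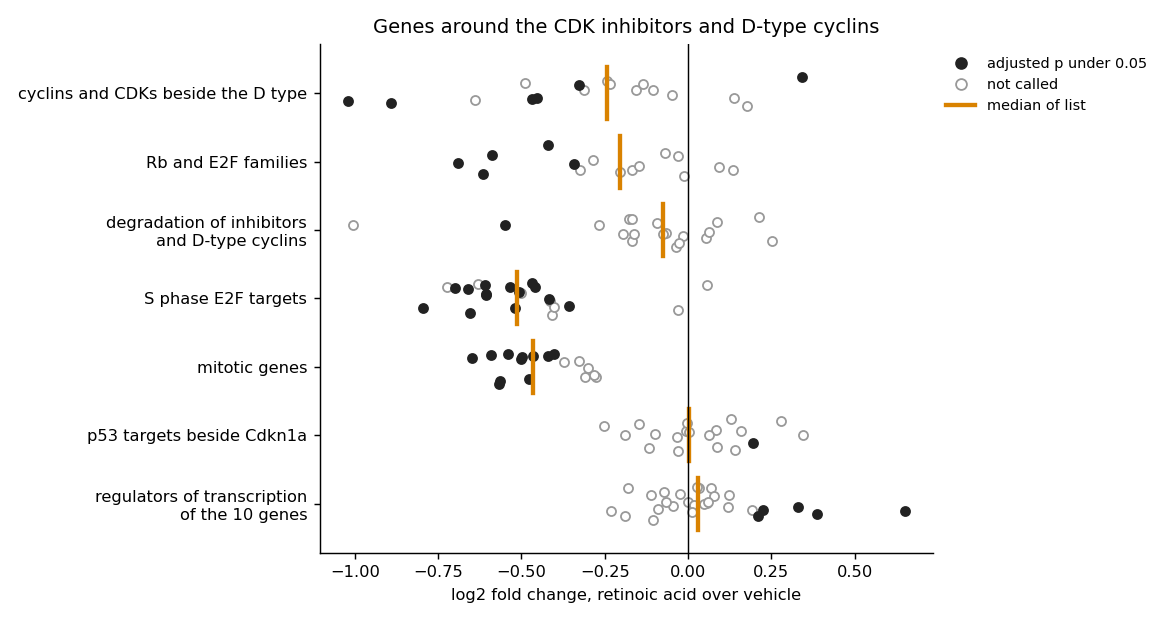
Log2 fold change (horizontal axis, retinoic acid over vehicle) of every tested gene in 7 lists around the CDK inhibitors and D-type cyclins; filled points had an adjusted p under 0.05, and the orange bar is the median of the list. The S phase and mitotic lists lie left of 0 with medians of -0.51 and -0.47, and the p53 target list is centred on 0.

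Of 19 tested targets of p53 other than Cdkn1a, 1 was higher and none lower, near the shares of all tested rows (5.37% higher and 4.09% lower), with a median log2 fold change of 0.00. With no filter on low counts 2 were higher. Mdm2, the ubiquitin ligase of p53, averaged 134 CPM with retinoic acid and 126 CPM with vehicle (log2 fold change 0.09, adjusted p = 0.529 in edgeR), and Ccng1 averaged 558 and 511 CPM (0.13, adjusted p = 0.212). The 1 that rose was Perp, a desmosomal protein gene (0.20, adjusted p = 0.0365), which was not called without any library in turn (up to 0.162) other than retinoic acid library 3. Without retinoic acid library 3, 2 members were higher and 2 lower. Trp53 itself was not called (0.06, adjusted p = 0.689).

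Of 28 tested regulators that are known to act on transcription of these genes, 5 rose and none fell, where 5.37% of all tested rows were higher and 4.09% lower (median log2 fold change 0.03). Elf3, an epithelial ETS factor, averaged 1181 ± 67.8 CPM with retinoic acid and 751 ± 40.9 CPM with vehicle (SD, n = 3; 1.57-fold, adjusted p = 7.43e-06 in edgeR). Egr1 rose 1.31-fold and Fos 1.26-fold, both early response factors, and the forkhead factor Foxo3 rose 1.17-fold. Jun (0.21), the fifth, was named after its value was seen. The number was 2 without retinoic acid library 1 or vehicle library 2, and 3 without retinoic acid library 2 or vehicle library 1. Fos lost its call without retinoic acid library 1 (adjusted p = 0.0874) or vehicle library 2 (0.0687), Foxo3 without any library other than retinoic acid library 3 (up to 0.134), and Jun without any other than vehicle library 3 (up to 0.156). The regulators Myc (0.03), Ctnnb1 (0.02), Klf4 (-0.07), Smad3 (0.00) and Bmi1 (-0.06) were not called (adjusted p between 0.559 and 0.994). Of 19 genes that act in the degradation of the inhibitors and D-type cyclins 1 fell and none rose, near the shares of all tested rows (4.09% lower and 5.37% higher), and 2 fell without retinoic acid library 2. It was Dtl, which directs p21 to destruction during S phase (-0.55, adjusted p = 0.00285 in edgeR), while Skp2, the ligase subunit that recognises p27, was not called (-0.18, adjusted p = 0.337).

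The genes whose profile over the 6 libraries was nearest to that of Cdkn2b were Por, Abhd6, Cidec, B3gnt7 and Mmp15. Nearness is the root mean square difference of log2 CPM, each gene centred on its own mean, and was between 0.0927 for Por and 0.109 for Mmp15, where the median over all candidates was 0.418. Genes picked in this way have log2 fold changes similar to that of Cdkn2b by construction, so these values only describe them. Por, the reductase that supplies electrons to cytochrome P450 enzymes, had a log2 fold change of 0.76. The others had 0.85 for Abhd6, a monoacylglycerol lipase gene, 0.63 for the lipid droplet gene Cidec, 0.67 for the glycosyltransferase gene B3gnt7 and 0.61 for the metalloproteinase gene Mmp15.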

How the data were processed

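Directional polyA libraries were made from organoid RNA, per the labels' protocols. The data are 1 deposited table of raw counts, a row per gene and a column for each of 6 libraries, and the authors' DESeq p-value, FDR and log2 fold change, per the file headers. Reads were aligned to mm10, per the submitters' processing notes; for the aligner, the annotation and the strand setting, nothing is given in the sources used here.

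Groups and replicate numbers came from sample titles. The deposited counts went into edgeR 4.0.16 (R 4.3.3), where filterByExpr at its defaults left 13700 of 21534 rows, at least 99.89% of each library's reads, TMM scaled the libraries (factors 0.978 to 1.023), and the quasi-likelihood test had treatment as its only term. Tests are two-sided, p-values were adjusted over all tested rows, and the SE is the log2 fold change divided by the square root of F. SDs are of CPM. The steps were also run on counts simulated with the spread of these data. Those counts were drawn independently per library, so that run does not cover effects shared between libraries. Named genes are the 10 members, up to 4 called genes per list with the smallest p, Mki67, Lgr5, Cyp26b1 and the 5 nearest profiles (mean of at least 10 CPM); any other is said to be named after its value was seen or is a list member or marker given for reference. The members and lists were chosen with earlier results of these data known. Alternatives were other scaling, filters, DESeq2 1.42.0, limma-voom (limma 3.58.1), a replicate block and leaving out libraries.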

Additional observations from a re-analysis of the deposited data

How the results depend on the processing

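The calls of Cdkn1a, Cdkn1c and Cdkn2b held under all 13 alternatives, which include 6 that leave out 1 library and 1, without library 3 of both groups, that was chosen after seeing the data. With no filter on low counts Cdkn2c was called (log2 fold change -0.41, adjusted p = 0.0174), as it was with the replicate block (-0.41, adjusted p = 0.017) and without library 3 of both groups (-0.51, adjusted p = 0.0148); the cause was not tested. The labels do not say whether libraries with the same number belong together. The correlation of their deviations from the group means was 0.128, 0.0975 and 0.257 for numbers 1, 2 and 3. Between different numbers it ran from -0.169 to 0.0602, so each library correlated best with its own number. Whether libraries of the same number share a culture or batch was not tested. The block raised the calls over all genes to 1224 higher and 1052 lower, against 736 and 560 without it, turned the log2 fold change of Ccnd1 to -0.0011 and changed no other call of the 10 genes. In the surrounding lists it called Cdk4 (adjusted p = 0.0273) and Cdk6 (0.0248), made 8 cyclins and CDKs lower instead of 5, and made 4 targets of p53 higher and 2 lower instead of 1 and 0. With 1 library left out, between 443 and 978 genes were higher and between 289 and 787 lower, 2 to 3 of the 10 genes were higher and 1 to 3 lower, and 3 to 8 genes of the surrounding lists were higher (7 with all libraries, 9 without library 3 of both groups) and 25 to 39 lower. The log2 fold changes then ranged from 0.55 to 0.96 for Cdkn2a, from -0.55 to -0.40 for Cdkn2d, from -0.52 to -0.33 for Cdkn2c, from -0.104 to 0.0737 for Ccnd1, from -0.0234 to 0.0441 for Ccnd2 and from -0.0214 to 0.0626 for Ccnd3. Without library 3 of both groups Ccnd1 had -0.0518 and Ccnd2 -0.0471. In the authors' deposited table, which used these counts too, there is an FDR of 4.83e-16 for Cdkn2b, 8.82e-10 for Cdkn1a, 0.0049 for Cdkn1c, 0.0122 for Cdkn2a, 0.0216 for Cdkn2d and 0.125 for Cdkn2c. Cdkn1c and Cdkn2a, with 53 to 266 counts per library, are the least precise values.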

Other observations

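The genes next to the 10 described here were examined after their values were seen, taking up to 2 tested genes on each side. Of 35 such neighbours 2 were higher and 3 lower with retinoic acid, where 9.46% of all tested rows were called. Fgf15, the ileal hormone gene 29.0 kb from Ccnd1, averaged 3213 CPM with retinoic acid and 568 CPM with vehicle (log2 fold change 2.50, SE 0.06, adjusted p = 6.81e-12 in edgeR), whereas Ccnd1 had an interval of -0.17 to 0.18. AI661453 near Ccnd3 was the other that rose (0.36, adjusted p = 0.00238 in edgeR). Those that fell were Ppil1 near Cdkn1a (-0.36, adjusted p = 0.0101), Slc44a2 near Cdkn2d (-0.39, adjusted p = 0.00982) and Gm20517 near Ccnd3 (-0.26, adjusted p = 0.0488). Fits without single libraries were not run for these neighbours.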
